A study of Homo sapiens with 32 samples.

Results

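The respiratory chain is described here in EPC2 cells, a telomerase-immortalised line of human esophageal epithelium, as flat cultures were turned into spheroids. Its genes were taken by symbol. They are the protein genes of the mitochondrial genome (MT-ND, MT-CO, MT-ATP and MT-CYB) and the nuclear genes for subunits of complex I (NDUFA, NDUFB, NDUFC, NDUFS and NDUFV), complex II (SDHA to SDHD), complex III (UQCR), complex IV (COX4 to COX8) and the ATP synthase, complex V (ATP5). This rule was met by 101 of the 19345 deposited symbols, 13 encoded in mitochondria and 88 in the nucleus. NDUFA4 and NDUFA4L2 carry complex I names and were counted with complex IV, where the NDUFA4 protein sits. Cytochrome c1 (CYC1) does not match the symbols and is not among them.

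All libraries came from wild-type EPC2 cells, and the 4 groups differed in culture form, time and cytokine. The monolayer group was harvested at day 0 (D0), before seeding, with 10 libraries. The D3 group held 9 libraries of untreated spheroids grown to day 3 in Matrigel, where the medium was serum-free for keratinocytes and CaCl2 stood at 0.6 mM. Untreated D11 spheroids gave 7 libraries at day 11. The remaining 6 libraries were D11 spheroids that had interleukin 13 (IL-13), a type 2 cytokine, at 20 ng/ml from day 3 to day 11. The labels name 2 independent experiments as batches, and nothing says which libraries came from separate cultures, so p-values measure the spread between these libraries, which may be technical. It is 1 cell line in culture, with no stroma and no immune cells added.

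The respiratory chain passes electrons from NADH and succinate to oxygen through complexes I to IV, and the proton gradient that this builds drives complex V. The mitochondrial genome encodes a small hydrophobic core of complexes I, III, IV and V and is transcribed as long polycistronic RNAs that are cut into the single mRNAs. The nuclear genome encodes all of complex II, the remaining subunits and the proteins needed to copy, transcribe and translate the mitochondrial genome. In stratified squamous epithelium the cells leave the basal, dividing state as they move into the upper layers.

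Values are TPM, which state each transcript as a part of its library after division by length. The libraries summed to between 999960 and 999989 TPM, which leaves the depth unknown and gives no interval for counting error. The basal keratinocyte markers KRT5 (13755 TPM in monolayers, 25874 TPM in untreated D11 spheroids) and KRT14 were abundant in all groups, and TP63 was present at group means of 11.8 to 21.2 TPM. The markers of later squamous layers were not: KRT4 was listed at 0 in all monolayers, and KRT13 and IVL averaged 0.11 and 0.63 TPM there. The summed level of 7 fibroblast markers was 3.4 to 9.6 TPM in monolayers, 8.1 to 30.4 TPM at D3, 58.0 to 78.1 TPM in untreated D11 and 22 to 46.9 TPM in IL-13 spheroids, nearly all of it COL1A1, with COL1A2 and COL3A1 listed at 0 in every library. That of 5 immune markers was 153 to 250 TPM, 134 to 209 TPM, 440 to 505 TPM and 339 to 468 TPM in the same order, with PTPRC, which defines leukocytes, at most at 0.1 TPM. It came from CD68 and CD14, and CD14 averaged 2.31, 30.2, 35.3 and 90.03 TPM. The 3 endothelial markers summed to at most 0.3 TPM and the 6 muscle markers to at most 0.6 TPM. In bulk RNA a lower share of cells of 1 kind and less RNA per cell cannot be told apart. Among D3 spheroids, libraries 4 and 7 sat with the libraries of the other batch, and the counts were repeated without them.

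The changes below are differences of log2(TPM + 1), the later or treated group minus the other, with their standard error (SE). They come from limma fitted over all 12221 genes that passed a filter on low values, with batch as a term, and adjusted p-values are Benjamini-Hochberg over those genes. Of the 101 genes 95 passed, all 13 mitochondrial and 82 nuclear. COX4I2, COX6A2, COX7B2 and COX8C, tissue-restricted isoforms of complex IV, did not pass, and neither did the read-through symbols ATP5MF-PTCD1 and NDUFC2-KCTD14. The nuclear genes tested were 36 for complex I, 4 for complex II, 9 for complex III, 15 for complex IV and 18 for complex V.

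Mitochondrially encoded genes share transcripts and bases, and 2 overlaps bear on how their values can be read. MT-ATP8 and MT-ATP6 lie on 1 bicistronic mRNA and share 46 bases at chrM:8527-8572 (hg38, GENCODE 29), all in capitals below. MT-ND4L and MT-ND4 share 7 bases within chrM:10748-10778, and there the capitals mark the shared bases between their flanks.
MT-ATP8/MT-ATP6: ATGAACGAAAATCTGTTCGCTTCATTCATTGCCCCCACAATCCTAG
MT-ND4L/MT-ND4: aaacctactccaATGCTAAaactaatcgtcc
Reads over these bases cannot be assigned to 1 gene, so the values within each pair are not independent. MT-ATP6 also abuts MT-CO3 with 1 shared base, yet the 2 neighbours did not move alike, as given below. MT-ND6 (chrM:14149-14673) is on the opposite strand and follows directly on MT-ND5 (chrM:12337-14148). The handling of strand is not given in the sources used here. The ratio of MT-ND6 to MT-ND5 lay between 0.915 and 1.16 over all libraries, so a level of MT-ND6 of its own is uncertain.

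Mitochondrial mRNAs held much of the TPM. Their summed share was 44.8% to 50.1% in monolayers (median 48.5%, n = 10). In D3 spheroids it was 39.1% to 57.1% (median 45.8%, n = 9), in untreated D11 spheroids 14.8% to 27.9% (median 22.3%, n = 7) and with IL-13 13.2% to 25.6% (median 21.5%, n = 6). Both D11 groups lay wholly below both earlier groups and overlapped each other. D3 spheroids fell into separate ranges, with libraries 1, 3, 4, 5 and 6 at 39.1% to 45.8% and libraries 2, 7, 8 and 9 at 53.1% to 57.1%.

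Since mitochondrial mRNAs took such different shares, the nuclear genes were also read as a share of the TPM outside the mitochondrial genes. By that measure their sum was 0.738% ± 0.0679 (SD, n = 10) in monolayers, 1.04% ± 0.113 (n = 9) at D3, 0.538% ± 0.0406 (n = 7) in untreated D11 spheroids and 0.718% ± 0.0624 (n = 6) with IL-13. The D3 libraries (0.865% to 1.19%) were all above the monolayers (0.670% to 0.822%), the untreated D11 libraries (0.489% to 0.576%) all below them, and the IL-13 libraries (0.596% to 0.770%) all above untreated D11. The ratio of the mitochondrial to the nuclear sum went from 125 ± 20.4 in monolayers to 90.4 ± 18.6 at D3, 52.5 ± 9.59 at D11 and 37.2 ± 8.94 with IL-13. These sums have no test, because the genes were chosen with earlier results known. In monolayers the nuclear share of all TPM was 0.432% ± 0.0217 in batch 1 and 0.343% ± 0.00640 in batch 2, and those libraries did not overlap.

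**Figure D1:**
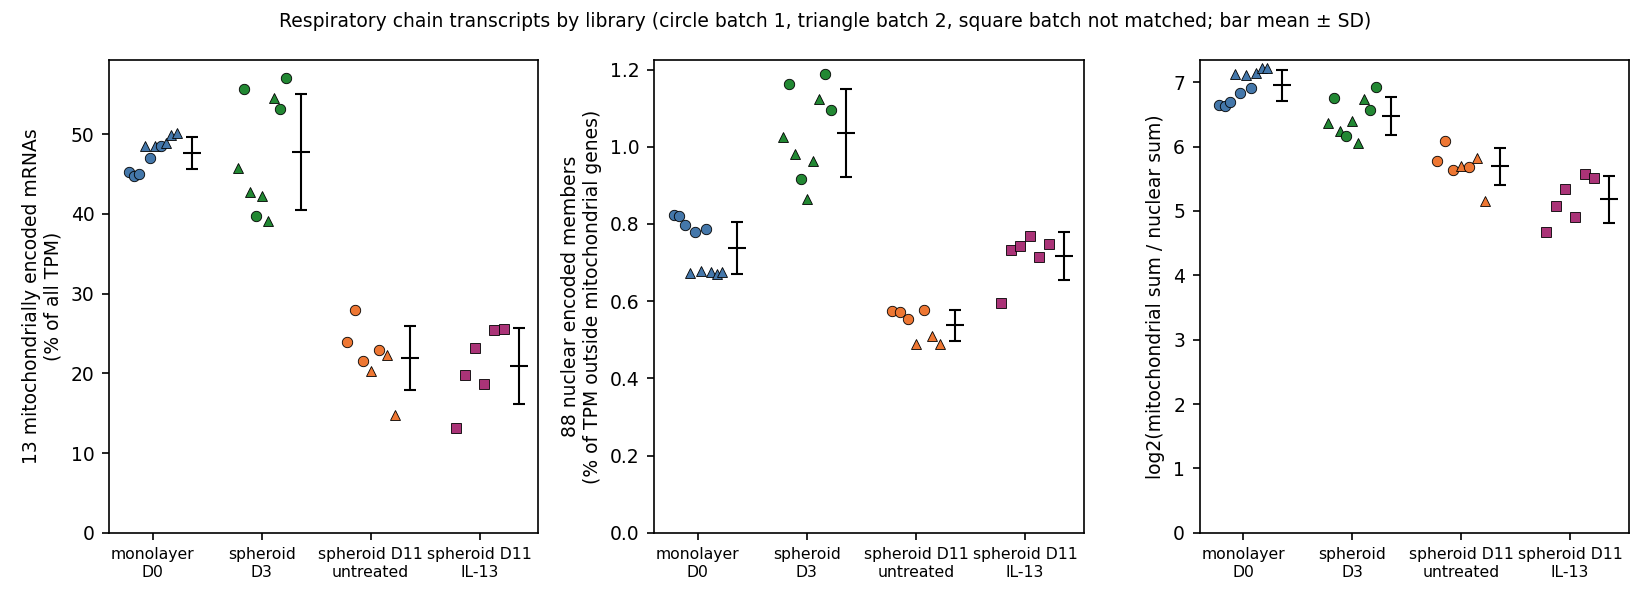
Each point is 1 library, by group; from left to right the vertical axes give the mitochondrial share of all TPM in percent, the nuclear share of TPM outside mitochondrial genes in percent, and the log2 ratio of both sums, with mean ± SD as bars. The D11 libraries sit at 13.2% to 27.9% on the left axis, all below the D0 and D3 libraries, while on the middle axis D3 is the highest group and the IL-13 libraries lie above untreated D11.

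From monolayer to D3 most nuclear genes rose while the mitochondrial mRNAs showed no common direction. Of 82 nuclear genes 51 were higher and 6 lower, where 12.7% of all genes tested were higher and 68.2% lower. Their median change was 0.34, against -0.44 for all genes tested. With the mitochondrial genes removed and the rest rescaled the counts were 53 and 3, against 13.3% and 66.3% of all genes. Under median-of-ratios scaling, which moves the median of all genes by 0.43, they were 79 and 1, against 33.3% and 33.2%. The members' median lay 0.77, 0.82 and 0.86 above that of all genes under these 3 scalings.

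Complex III, which passes electrons from ubiquinol to cytochrome c, was higher in all 9 of its genes tested. Complex IV, which reduces oxygen, had 13 of 15 higher and 1 lower, and complex V had 15 of 18 higher and none lower. Complex I, the entry point for NADH, had 12 of 36 higher and 4 lower, with a median change of 0.10. Complex II had 2 of 4 higher and 1 lower.

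COX5B, the zinc-binding subunit of complex IV, was at 162 to 203 TPM in monolayers (median 174) and at 250 to 450 TPM in D3 spheroids (median 373). The groups did not overlap, and its change was 0.98 ± 0.08 (SE; adjusted p = 7.05e-12). Of the nuclear genes 17 had all D3 libraries above all monolayers and 1 had them below, against 5.29% and 39% of all genes. UQCRHL had the largest rise of complex III (0.91), but it is a near-copy of UQCRH, listed 5.18 to 7.81 times as high as that gene, and reads of the pair may be split between them. NDUFA1, an accessory subunit of complex I, had the largest rise of that complex, 0.97 ± 0.10 (adjusted p = 4.69e-10), and ATP5ME, a subunit of the membrane part of complex V, that of complex V, 0.94.

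SDHA, the flavoprotein that oxidises succinate, was at 15.4 to 27.6 TPM in monolayers and 11.2 to 13.7 TPM at D3. It was the nuclear gene whose D3 libraries all lay below the monolayers (change -0.73 ± 0.07; adjusted p = 1.86e-10). Its partner SDHD, a membrane anchor of the same complex, rose by 0.54 ± 0.09 (adjusted p = 1.6e-06). SDHA fell by 0.73 with mitochondrial genes removed and by 0.22 under median of ratios (adjusted p = 0.0215).

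The mitochondrial mRNAs at D3 were mixed. MT-CO3 (0.36 ± 0.11, adjusted p = 0.00334) and MT-ND3 (0.39 ± 0.11, adjusted p = 0.00208) were higher. MT-ND1 (-0.45), MT-CYB (-0.39), MT-ND6 (-0.31) and MT-ND5 (-0.27) were lower, and the other 7 of 13 did not pass the threshold. Under median-of-ratios scaling these 4 changes turned positive (0.10 to 0.28) and 10 of 13 were called higher, while quantile normalization called none higher. The call of MT-ND5 (adjusted p = 0.0484) was lost when any of several single libraries was left out, among them monolayer 9 (adjusted p = 0.0938) and D3 library 6 (0.0922). That of MT-ND6 was lost without any 1 of 6 libraries, with the highest adjusted p without monolayer 10 (0.0608).

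This step differed between the experiments. The nuclear median was 0.09 in batch 1 and 0.50 in batch 2, and the mitochondrial median 0.06 and -0.34. A change that differed between the batches was called for 52 of 82 nuclear and 4 of 13 mitochondrial genes, against 45.2% of all genes tested. NDUFB9, an accessory subunit of complex I, was at 33.5 to 96.6 TPM in monolayers, with a change of 0.02 in batch 1 and -1.21 in batch 2. Without D3 libraries 4 and 7 the mitochondrial genes called lower went from 4 to 2, and those whose change differed between batches from 4 to 11, where 48.4% of all genes differed in that fit.

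From D3 to D11 without IL-13 nearly all mitochondrial mRNAs and most nuclear genes fell. Of the 13 mitochondrial mRNAs 12 were lower and none higher, where 35.8% of all genes tested were lower and 33.6% higher, and their median change was -1.34. In 10 of them every D11 library lay below every D3 library, against 19% of all genes. Of the 82 nuclear genes 57 were lower and 10 higher, with a median of -0.34 against -0.02 for all genes.

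The falls of the mitochondrial mRNAs were unequal. MT-ATP6, a membrane subunit of complex V, was at 42745 to 64291 TPM at D3 (median 59986) and at 9394 to 15574 TPM at D11 (median 11682). The ranges were far apart, and the change was -2.14 ± 0.11 (adjusted p = 1.66e-16), the largest of the 13. MT-ATP8, on the same mRNA, changed by -2.11 ± 0.16. MT-CO1, the catalytic subunit of complex IV, changed by -1.52, and MT-CO2, MT-ND4, MT-ND4L, MT-ND5 and MT-ND6 by -1.30 to -1.39.

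Next to MT-ATP6 on the genome, MT-CO3 was at 71478 to 88770 TPM at D3 and 29496 to 56170 TPM at D11, and changed by -0.76 ± 0.12 (adjusted p = 1.73e-06). Smaller falls were those of MT-ND1 (-0.65), MT-ND3 (-0.53) and MT-CYB (-0.36). MT-ND2, a core subunit of complex I, was at 19663 to 24807 TPM at D3 (median 23855) and at 13154 to 30455 TPM at D11 (median 22559). These groups overlapped widely and MT-ND2 did not pass the threshold (-0.11 ± 0.14, adjusted p = 0.504). Its change was 0.10 in batch 1 and -0.39 in batch 2, and the difference between batches passed the test.

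The make-up of the mitochondrial mRNA pool therefore differed between D3 and D11, by measures within each library that no scaling alters. MT-ATP6 held 11.3% ± 0.760 (SD, n = 9) of the mitochondrial sum at D3 and 5.61% ± 0.424 (n = 7) at D11. MT-ND2 held 4.85% ± 0.435 and 9.90% ± 0.992, and MT-CYB, the core subunit of complex III, 3.48% ± 0.234 and 6.00% ± 0.294. None of these ranges overlapped. The ratio of MT-CO3 to MT-ATP6 was 1.15 ± 0.0692 in monolayers, 1.51 ± 0.162 at D3, 3.96 ± 0.626 at D11 and 3.08 ± 0.314 with IL-13, and only the D11 groups overlapped. Such ratios show unequal change and not that any of these mRNAs stayed level.

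**Figure D2:**
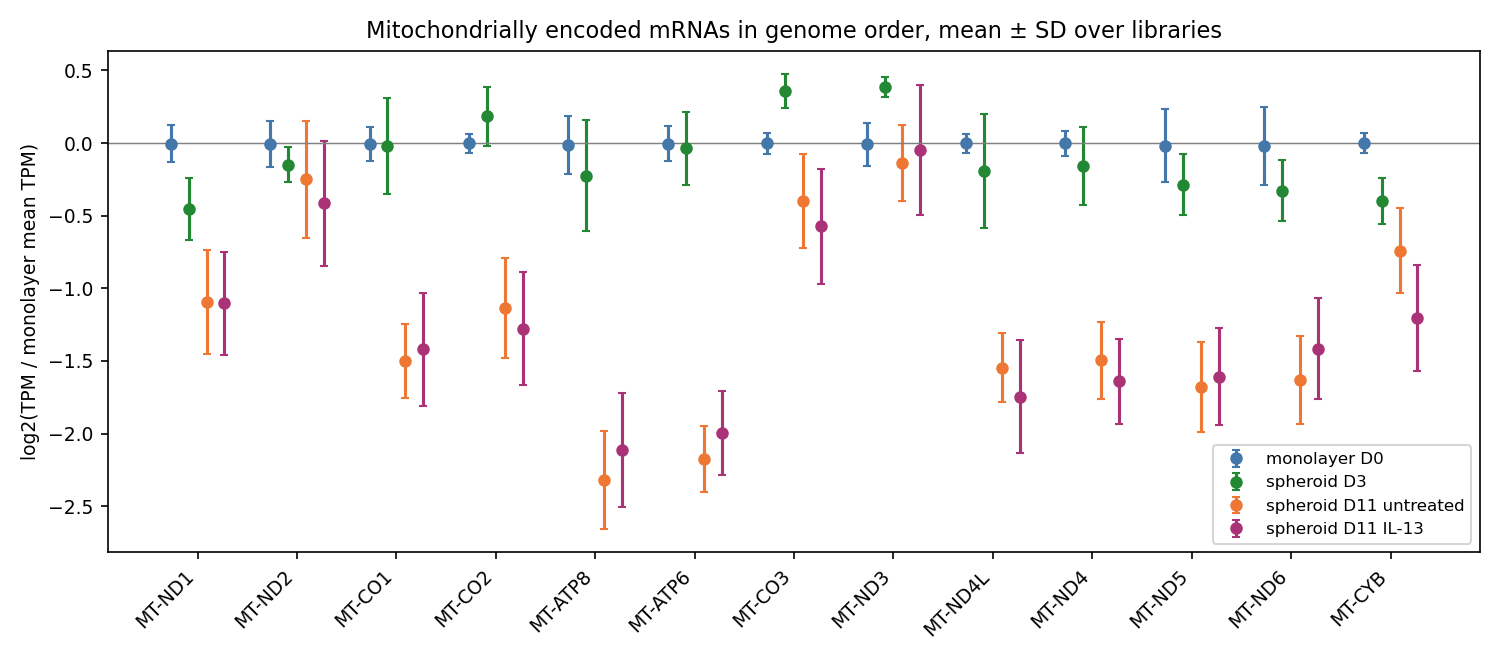
The horizontal axis gives the 13 mitochondrial mRNAs in the order of the genome and the vertical axis log2 of TPM over the mean TPM of the monolayers; points are group means over libraries and bars SD. At D11 MT-ATP8 and MT-ATP6 are the lowest and MT-ND2, MT-CO3 and MT-ND3 stay nearest to the monolayer line (as deposited; under median of ratios MT-CO3, MT-ND2 and MT-ND3 lie above it).

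Among nuclear genes the falls reached every complex. All 9 genes of complex III and all 4 of complex II were lower, as were 23 of 36 in complex I, 8 of 15 in complex IV and 13 of 18 in complex V. NDUFV1, the subunit of complex I that takes electrons from NADH, was at 108 to 142 TPM at D3 (median 122) and 45.9 to 67.6 TPM at D11 (median 63.9). These groups did not overlap (-1.06 ± 0.08, adjusted p = 6.88e-13). In the same step IVL went from 22.8 to 446 TPM, TP63 from 18 to 11.8 TPM and KRT4 from 71.9 to 15.6 TPM in the means, and the part of these markers was not tested. ATP5F1B, the catalytic beta subunit of complex V, changed by -0.85 ± 0.07 (adjusted p = 1.61e-11) and UQCRC1, a core subunit of complex III, by -0.52 ± 0.06 (adjusted p = 1.59e-09).

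NDUFA7, an accessory subunit, had the largest fall in complex I (-1.59 ± 0.33, adjusted p = 9.08e-05) and was at 5.6 to 9.3 TPM at D3 and 0 to 4.3 TPM at D11. A listing at 0 can be a failed estimate, so no fold is drawn from it. In 23 of the 82 nuclear genes all D11 libraries were below all D3 libraries, and in 5 all were above, against 19% and 19.1% of all genes.

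The 10 nuclear genes called higher were NDUFB4, NDUFA12 and NDUFS4 of complex I, NDUFA4L2, COX6B2 and COX7A2L of complex IV, and ATP5MK, ATP5IF1, ATP5F1E and ATP5MC2 of complex V. They were named after their values were seen. With mitochondrial genes removed, which moves the median of all genes by -0.49, NDUFA4L2 and COX6B2 were the 2 still called higher and 74 were lower, against 13.6% and 65.7% of all genes. Under median of ratios 10 were higher and 51 lower, against 37.9% and 35.2%. The nuclear median lay 0.31 below that of all genes as deposited, 0.41 below it with mitochondrial genes removed and 0.30 below it under median of ratios. The change differed between batches for 17 of 82 nuclear and 2 of 13 mitochondrial genes, against 23.8% of all genes. Without D3 libraries 4 and 7 it differed for 24 nuclear and 2 mitochondrial genes, against 39.5% of all genes. The nuclear median was -0.26 in batch 1 and -0.44 in batch 2.

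**Figure D3:**
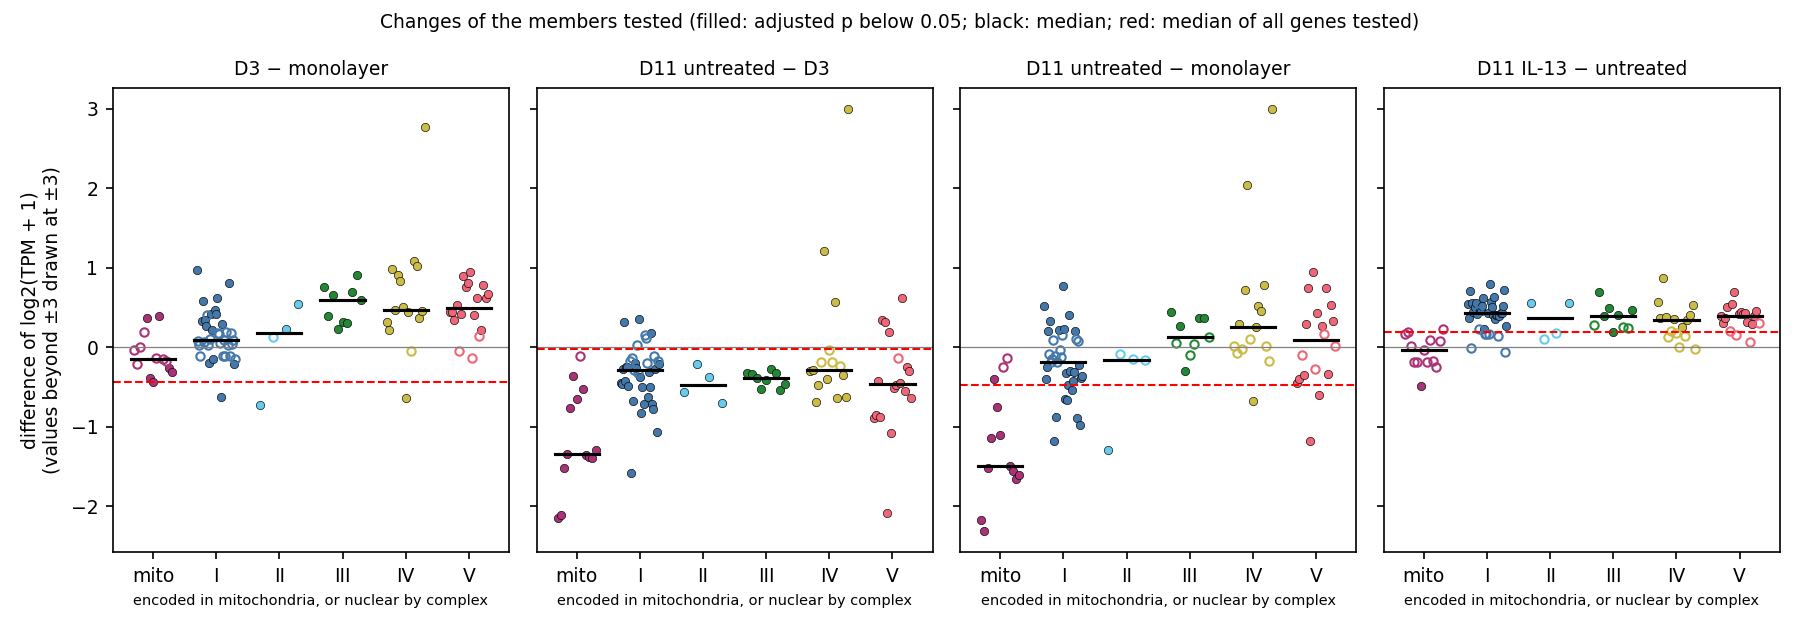
Each panel is 1 comparison, with the 13 mitochondrially encoded genes (mito) and the nuclear genes of complexes I to V along the horizontal axis and the difference of log2(TPM + 1) on the vertical axis; points are genes, filled where the adjusted p passed, and values beyond the axis are drawn at its edge. In the second panel the mitochondrial median is -1.34 against -0.02 for all genes (red), and in the last panel the complexes lie above the red line at 0.19 as deposited while the mitochondrial genes do not.

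Isoform pairs moved apart. NDUFA4 is a subunit of complex IV, and NDUFA4L2 is its paralog, known as a hypoxia-induced gene that lowers respiration. NDUFA4L2 was at 1.1 to 6 TPM in monolayers (median 3.95), 3.8 to 113 TPM at D3 (median 68.2), 345 to 385 TPM in untreated D11 spheroids (median 360) and 200 to 358 TPM with IL-13 (median 283). Untreated D11 libraries were all above D3, while monolayers and D3 overlapped at the low end. The rises were 2.77 ± 0.45 at D3 (adjusted p = 1.71e-06) and 3.80 ± 0.49 from D3 to D11 (adjusted p = 5.62e-08), the largest of any gene of the chain in both steps.

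The D3 libraries split on this gene as they did on the mitochondrial share. The split is that of the batches with libraries 4 and 7 exchanged, and the rises above pool both sets. Libraries 2, 7, 8 and 9, those with the high mitochondrial share, were at 3.8, 4.7, 5.6 and 11.6 TPM, and libraries 1, 3, 4, 5 and 6 at 68.2, 89, 89.6, 99.3 and 112.9 TPM. NDUFA4 went the other way from D3 (25.0 to 44.4 TPM) to D11 (17.5 to 27.7 TPM), with -0.63 ± 0.13 (adjusted p = 7.79e-05). The ratio of NDUFA4L2 to NDUFA4 was 0.181 ± 0.146 in monolayers, 1.85 ± 1.69 at D3, 16.8 ± 3.11 at D11 and 8.71 ± 2.94 with IL-13. With IL-13 the fitted change of NDUFA4L2 was -0.02 ± 0.55 (adjusted p = 0.981), with group means of 362 and 290 TPM. That SE and p come from the fit over all groups, so they carry the wide spread of the D3 libraries. They do not measure the spread within the D11 groups, at 345 to 385 TPM untreated and 200 to 358 TPM with IL-13. The fitted change itself also carries the batch term, which all groups share and in which each IL-13 column had a batch 2 share of 1 in 6. It is not the plain difference between the D11 groups, and -0.02 does not show that they were level.

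The c ring of complex V is built from 1 mature peptide that 3 genes, ATP5MC1, ATP5MC2 and ATP5MC3, encode behind different targeting sequences. ATP5MC1 was at 60.6 to 96.8 TPM at D3 (median 80.5) and 12.5 to 26.2 TPM at D11 (median 19.3), without overlap, and with -2.08 ± 0.14 (adjusted p = 2.39e-14) it had the largest nuclear fall. ATP5MC3 changed by -1.07 ± 0.15 (adjusted p = 2.16e-07). ATP5MC2 was low, at 11.0 to 14.1 TPM at D3 and 13.0 to 16.4 TPM at D11, with 0.19 ± 0.06 as deposited (adjusted p = 0.00835) and -0.37 with mitochondrial genes removed. The sum of the 3 was 284 ± 39.1 TPM at D3 and 127 ± 6.75 TPM at D11, and the share of ATP5MC1 in it was 27.9% ± 3.31 and 15.1% ± 3.38.

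COX6B2, known as the testis isoform of a complex IV subunit, was at 2.3 to 6.6 TPM at D3 and 9.1 to 14.4 TPM at D11, without overlap (1.21 ± 0.19, adjusted p = 1.97e-06). The ubiquitous COX6B1 did not pass the threshold (-0.19 ± 0.15, adjusted p = 0.267). COX7A1, the muscle isoform, did not exceed 4 TPM in any library. COX7A2L, known as a factor for the joining of complexes III and IV, rose from 5.1 to 7.0 TPM at D3 to 7.7 to 10.8 TPM at D11 (0.57 ± 0.08, adjusted p = 1.46e-07), but its change was 0.04 with mitochondrial genes removed (adjusted p = 0.68).

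ATP5IF1, the inhibitor of the hydrolytic activity of complex V, was singled out after its values were seen. It was at 25.6 to 32.1 TPM in monolayers, 29.1 to 46.5 TPM at D3, 38.6 to 56.2 TPM at D11 and 58.8 to 82.0 TPM with IL-13. From D3 to D11 its change was 0.32 ± 0.09 as deposited (adjusted p = 0.00212) and -0.27 with mitochondrial genes removed (adjusted p = 0.0131), so its direction in this step depends on the scaling. Its ratio to ATP5F1B, within each library, was 0.0666 ± 0.00900 at D3 and 0.146 ± 0.00750 at D11, and those ranges did not overlap. The D3-to-D11 change was 0.58 in batch 1 and 0.02 in batch 2, and the difference between batches passed the test.

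**Figure D4:**
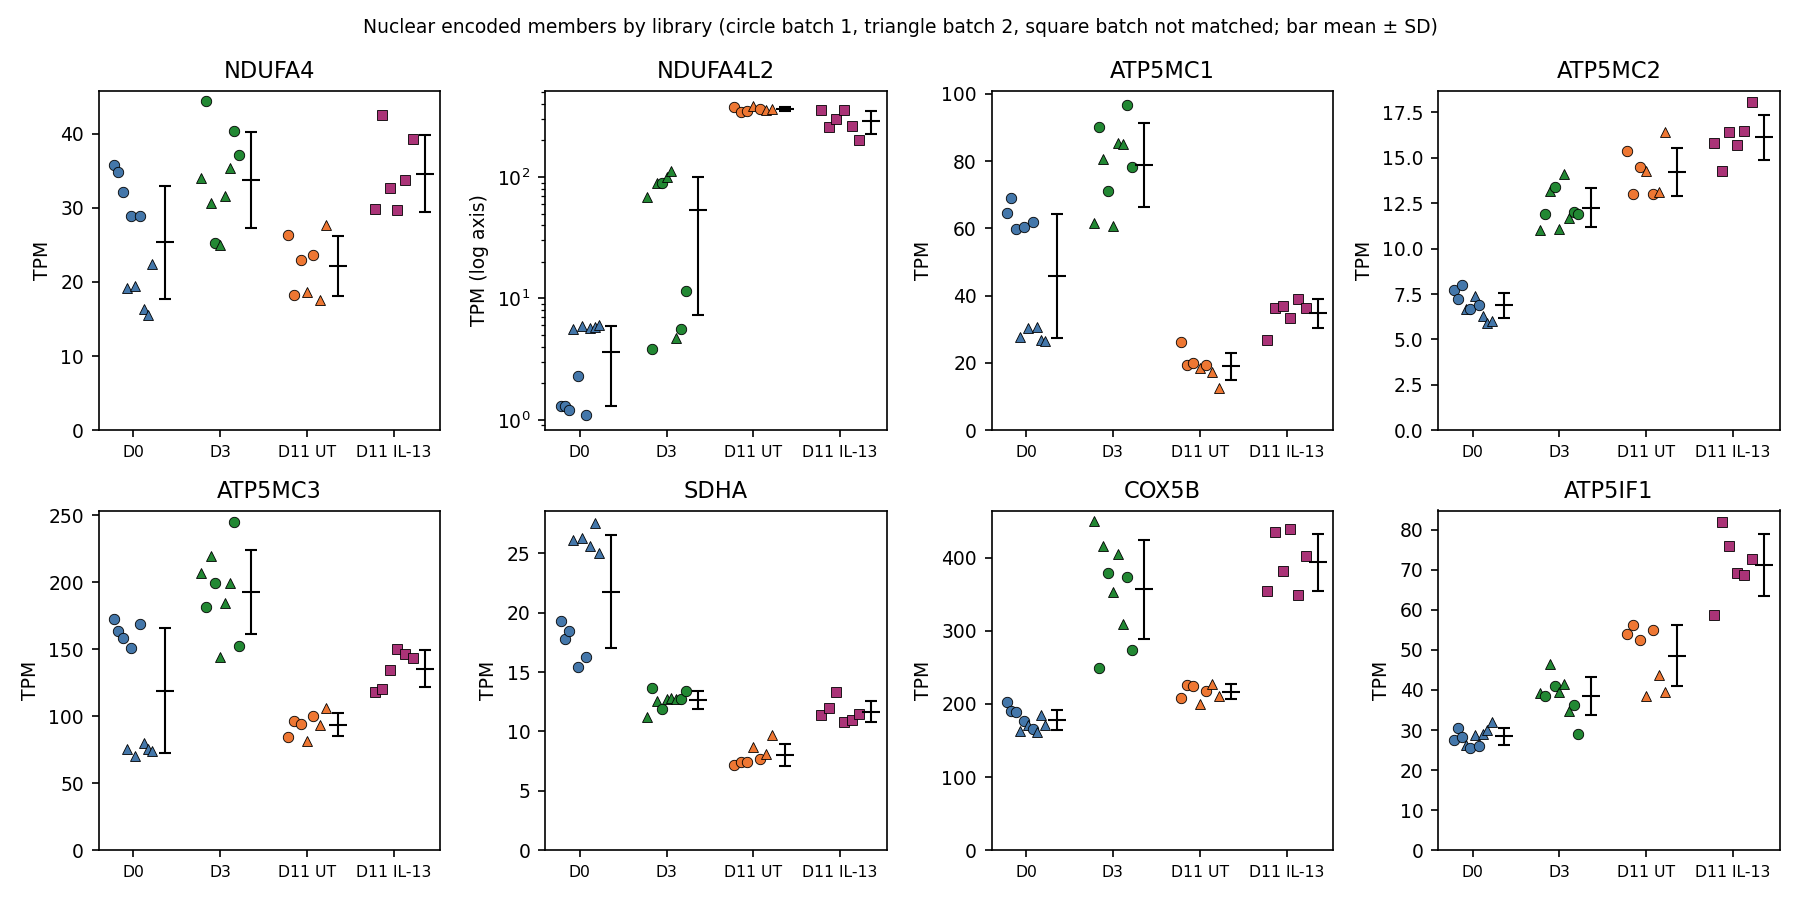
Each point is 1 library, with its TPM on the vertical axis (a log axis for NDUFA4L2) and the groups along the horizontal axis; bars are mean ± SD. NDUFA4L2 is at 345 to 385 TPM in untreated D11 spheroids, ATP5MC1 is lowest there, SDHA is highest in monolayers, and COX5B and ATP5IF1 are higher with IL-13 than without.

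Set directly against monolayers, untreated D11 spheroids had lower mitochondrial mRNAs, and the direction of the nuclear genes depended on the scaling. Of 13 mitochondrial mRNAs 11 were lower and none higher, with all D11 libraries below all monolayers in 11, where 63.5% of all genes were lower and 45.3% did not overlap below. MT-ATP8 (-2.32 ± 0.16) and MT-ATP6 (-2.17 ± 0.11) fell most, and MT-ND2 and MT-ND3 did not pass the threshold. Under median of ratios MT-CO3 turned from -0.40 to 0.20.

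Of 82 nuclear genes 28 were higher and 26 lower as deposited, against 21% of all genes higher and 63.5% lower. With mitochondrial genes removed, which moves the median of all genes by -0.53, the counts were 5 and 64, against 12.1% and 78.7%. Under median of ratios, which moves it by 0.48, they were 65 and 6, against 40.2% and 40.1%. In 8 genes all D11 libraries were above all monolayers and in 10 all were below, against 13.4% and 45.3% of all genes. Their median lay above that of all genes in each case, by 0.45, 0.40 and 0.55. SDHA (-1.29 ± 0.08, adjusted p = 8.42e-16) and ATP5MC1 (-1.18 ± 0.13) were lower and NDUFA4L2 (6.58 ± 0.48) and COX6B2 (2.04 ± 0.19) higher under all 3 scalings. The change differed between batches for 36 nuclear and 7 mitochondrial genes, against 48.3% of all genes, and the nuclear median was -0.08 in batch 1 and 0.07 in batch 2.

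With IL-13 most nuclear genes were higher than in untreated D11 spheroids, and the mitochondrial mRNAs were not. Of 82 nuclear genes 59 were higher and none lower, where 39.2% of all genes tested were higher and 8.49% lower, and their median change was 0.40 against 0.19 for all genes. In 27 of them all IL-13 libraries lay above all untreated ones and in none below, against 9.66% and 4.03% of all genes. The counts higher were 28 of 36 in complex I, 2 of 4 in complex II, 6 of 9 in complex III, 9 of 15 in complex IV and 14 of 18 in complex V. With mitochondrial genes removed 49 were higher and none lower, against 29.7% and 7.8% of all genes. Under median of ratios, which moves the median of all genes by -0.19, 22 were higher and none lower, against 19.3% and 20.6%. Their median lay above that of all genes by 0.21, 0.19 and 0.16 in turn. Markers of the squamous layers moved in the same comparison. IVL, of the upper layers, averaged 446 TPM in untreated and 87.6 TPM in IL-13 spheroids, TP63, of the basal layer, 11.8 and 21.0 TPM, KRT4 15.6 and 761 TPM, and KRT13 11.4 and 220 TPM. The part of these markers in the result was not tested.

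COX5B was at 200 to 227 TPM in untreated spheroids (median 218) and 348 to 439 TPM with IL-13 (median 392). The groups were well apart, and its rise of 0.87 ± 0.10 (adjusted p = 7.34e-08) was the largest of the chain. NDUFB7, an accessory subunit of complex I, was at 36 to 50.3 and 60.6 to 97.2 TPM, without overlap (0.80 ± 0.11, adjusted p = 4.7e-07), and NDUFV1 at 45.9 to 67.6 and 73.9 to 116 TPM (0.72 ± 0.09, adjusted p = 1.44e-07). ATP5MC1 rose by 0.70, UQCR11, a small subunit of complex III, by 0.69, COX4I1, the regulatory subunit of complex IV, by 0.57, SDHA by 0.56 and ATP5IF1 by 0.55.

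The smaller calls were less stable when single libraries were left out of the fit over all groups. ATP5MC3 (0.41 ± 0.17, adjusted p = 0.0436) was no longer called without untreated library 1 (adjusted p = 0.102), UQCRC2, a core subunit of complex III (0.20, adjusted p = 0.0456), without IL-13 library 6 (0.152), and NDUFB9 (0.50, adjusted p = 0.0302) without IL-13 library 3 (0.0635). UQCRC2 also turned to -0.05 under median of ratios. The ATP5MC3 libraries did not overlap, at 81.3 to 105.8 TPM untreated and 117.9 to 150.1 TPM with IL-13, while those of UQCRC2 and NDUFB9 did. The SE and p of ATP5MC3 carry the spread of all groups, with monolayers at 70.5 to 172.8 TPM. They do not measure the spread within the D11 groups alone.

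Of the mitochondrial mRNAs MT-CYB was lower with IL-13, at 5823 to 11988 TPM against 8986 to 17107 TPM in untreated spheroids. The groups overlapped, and the change was -0.50 ± 0.13 (adjusted p = 0.00183). The other 12 did not pass the threshold, their changes running from -0.26 to 0.22. Under median of ratios 6 of the 13 were lower. IL-13 library 1 had the lowest mitochondrial share of all (13.2%), and without it MT-ATP6 (0.28, adjusted p = 0.0436) and MT-ND6 (0.36, adjusted p = 0.0316) were called higher. Without untreated library 7, the lowest of its group (14.8%), MT-CO3 was called lower (-0.29, adjusted p = 0.0444). As shares of the mitochondrial sum MT-CYB was at 6.00% ± 0.294 in untreated and 4.60% ± 0.286 in IL-13 spheroids, without overlap, and MT-ATP6 at 5.61% ± 0.424 and 6.71% ± 0.578. The IL-13 columns could not be tied to a batch. By the labels 5 of these samples are of batch 1 and 1 of batch 2, so there are no values within batches for this comparison.

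The genes that build and serve the chain were read as lists beside it, first from D3 to D11, where 33.6% of all genes were higher and 35.8% lower as deposited, and 13.6% and 65.7% with mitochondrial genes removed. Of 75 mitochondrial ribosome genes 4 were higher and 43 lower, and 1 and 73 with mitochondrial genes removed, with MRPL12 at -1.44 and MRPS6 at 1.19. Of 38 genes for mitochondrial DNA replication, transcription and RNA handling 4 were higher and 25 lower, and 0 and 35 in the other scaling, with TWNK, the DNA helicase, at -1.36. The TCA cycle and pyruvate dehydrogenase list had 3 of 21 higher and 15 lower, and 0 and 20, with FH, fumarase, at -1.12. The list of cytochrome c and ubiquinone synthesis had 1 of 15 higher and 11 lower, and 1 and 14, with CYCS, cytochrome c, at 80.4 ± 23.2 TPM at D11 against 167 ± 40.4 TPM at D3. Of 47 assembly factors 10 were higher, among them HIGD1A (1.41), a factor of complex IV known to respond to hypoxia, and 21 lower, among them FOXRED1 for complex I (-1.45), and 2 and 39 in the other scaling.

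Among 16 regulators of biogenesis 5 were higher and 6 lower as deposited and 2 and 12 with mitochondrial genes removed, with PPARD at 1.94 and the coactivator PPARGC1B at -1.43. Mitophagy genes had 13 of 18 higher and 1 lower as deposited and 7 and 5 with mitochondrial genes removed. BNIP3, a receptor on mitochondria for autophagy, rose from 19.2 ± 5.68 to 65.7 ± 19.8 TPM (1.75). Among 12 genes listed for the switch between glycolysis and respiration (the respiration switch list) 7 were higher and 2 lower. With mitochondrial genes removed the counts were 5 and 6. The genes of this list, LDHB among them, do not all act in the same direction, so its counts give no direction of metabolism. HK2, which starts glycolysis, went from 16.4 ± 4.38 to 212 ± 56.2 TPM (3.64 ± 0.19), and LDHB was at -2.12.

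At D3 against monolayers, where 12.7% of all genes were higher and 68.2% lower, the mitochondrial ribosome had 5 of 75 higher and 36 lower. Assembly factors had 3 of 47 and 25, DNA and RNA handling 1 of 38 and 27, biogenesis regulators 3 of 16 and 10, the TCA list 4 of 21 and 9, the cytochrome c list 3 of 15 and 7, mitophagy 1 of 18 and 9, and the respiration switch list 7 of 12 and 3. The medians of the ribosome (-0.16) and of the assembly factors (-0.26) were above the -0.44 of all genes. SLC2A1, a glucose transporter, rose by 1.81 and MYC by 0.91. At D11 against monolayers 63.5% of all genes were lower. As deposited the ribosome had 52 of 75 lower, assembly factors 27 of 47 and the TCA list 14 of 21, shares near that background. DNA and RNA handling had 32 of 38 and the cytochrome c list 13 of 15. Biogenesis regulators had 2 of 16 higher and 10 lower, mitophagy 8 of 18 and 4, and the respiration switch list 8 of 12 and 3. With mitochondrial genes removed 12.1% of all genes were higher and 78.7% lower. The ribosome then had 1 and 72, assembly factors 2 and 38 and the TCA list 1 and 20. DNA and RNA handling had 0 and 35, the cytochrome c list 1 and 14, biogenesis regulators 1 and 14, mitophagy 4 and 10 and the switch list 7 and 4.

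With IL-13, where 39.2% of all genes were higher as deposited and 29.7% with mitochondrial genes removed, the mitochondrial ribosome had 57 of 75 genes higher and none lower, and 46 and none in the other scaling, with MRPL38 at 0.79. Assembly factors had 33 of 47 higher and 1 lower, and 29 and 1. DNA and RNA handling had 19 of 38 higher and none lower as deposited but 8 and none with mitochondrial genes removed. The cytochrome c list had 10 of 15 and none, and 9 and none, and the TCA list 11 of 21 and 2, and 9 and 2. Biogenesis regulators had 5 of 16 higher and 3 lower, mitophagy 9 of 18 and none, and the respiration switch list 4 of 12 and 5. The median changes were 0.41 for the ribosome and 0.40 for the assembly factors, next to 0.40 for the nuclear subunits. HK2 fell by 1.93 ± 0.22, to 57.8 ± 36.8 TPM, HIGD1A by 0.60 and PPARD by 0.74. Mitochondrial rRNA and tRNA genes were not analysed here.

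**Figure D5:**
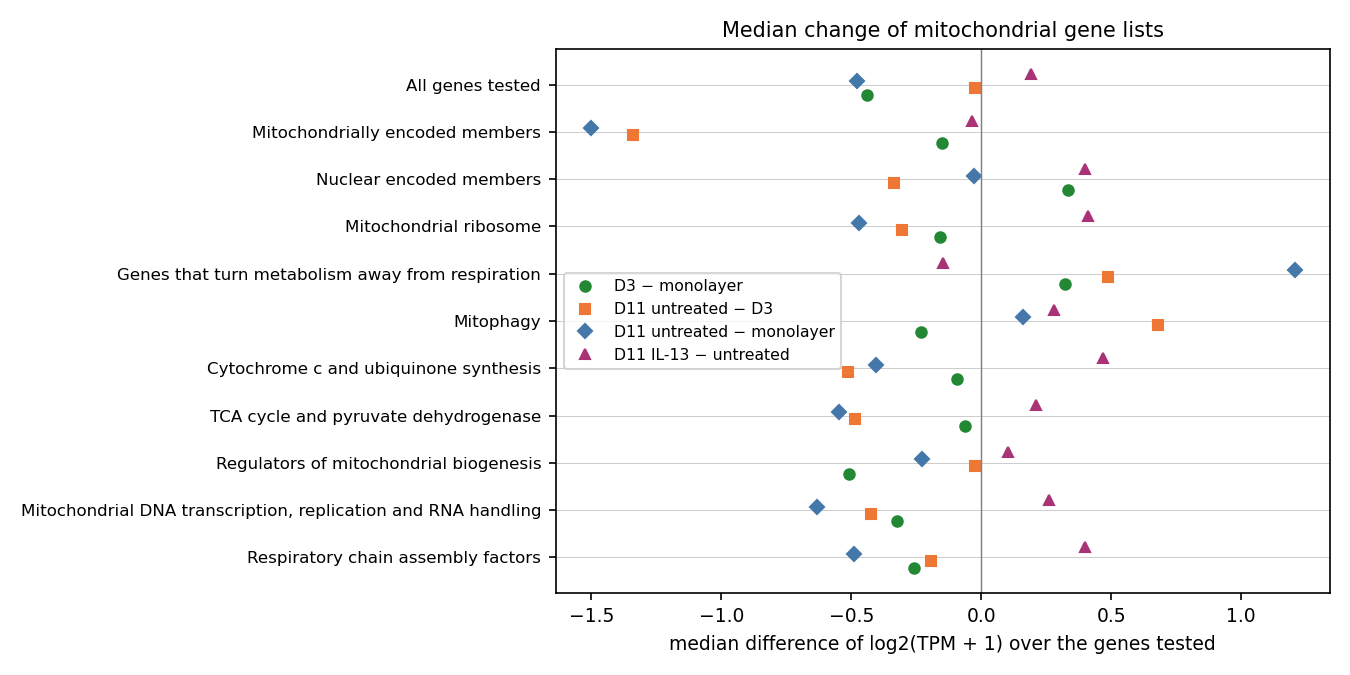
The horizontal axis gives the median difference of log2(TPM + 1) over the genes tested of each list, and the symbols the 4 comparisons; nuclear and mitochondrially encoded genes of the chain and all genes tested are the top 3 rows. With IL-13 (triangles) the ribosome, assembly and nuclear chain medians lie at 0.40 to 0.41, against 0.19 for all genes and -0.04 for the mitochondrially encoded genes. The row named for turning metabolism away from respiration is the respiration switch list, whose genes do not all act in the same direction.

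Promoter sequence was compared for the 70 of 88 nuclear genes found in the RefSeq table (GRCh38.p14), over the 250 bases before the annotated start, on both strands. The palindromic motif of NRF1, a known regulator of respiratory genes, was in 21.43% of these against 5.53% of all 27305 promoters in the table. The GABPA motif CCGGAAGT was in 14.29% against 3.64%, the SP1 motif GGGCGG in 57.14% against 42.31%, and the YY1 motif AAGATGGC in 1.43% against 1.37%. The hypoxia response core was in 22.86% against 18.68% as ACGTG and in 48.57% against 31.91% as GCGTG. None of these motifs contains another, and a match is a description of letters only.

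The 4 promoters below belong to genes that moved differently, with matches to NRF1 or GABPA in capitals. SDHA, at chr5:218070-218240, fell at D3 and at D11. NDUFB4, at chr3:120596086-120596308, rose at D3. COX5B, at chr2:97645812-97646039, had the largest rise with IL-13. ATP5MC1, at chr17:48892537-48892764, had the largest nuclear fall at D11. Each is on the plus strand and ends where the GENCODE 29 gene begins, 22 to 79 bases before the RefSeq start.
SDHA: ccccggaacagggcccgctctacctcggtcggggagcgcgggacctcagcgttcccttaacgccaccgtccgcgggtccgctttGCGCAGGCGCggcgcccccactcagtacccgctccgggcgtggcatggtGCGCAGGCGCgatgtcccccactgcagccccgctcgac
NDUFB4: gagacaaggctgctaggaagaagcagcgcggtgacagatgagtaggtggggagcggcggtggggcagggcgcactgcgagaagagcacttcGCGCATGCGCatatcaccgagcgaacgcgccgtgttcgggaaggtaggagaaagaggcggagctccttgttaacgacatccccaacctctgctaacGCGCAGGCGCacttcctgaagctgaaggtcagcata
COX5B: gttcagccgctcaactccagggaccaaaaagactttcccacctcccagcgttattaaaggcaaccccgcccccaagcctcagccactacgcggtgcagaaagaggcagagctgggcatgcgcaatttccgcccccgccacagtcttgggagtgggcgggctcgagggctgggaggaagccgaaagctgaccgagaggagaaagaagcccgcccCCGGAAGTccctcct
ATP5MC1: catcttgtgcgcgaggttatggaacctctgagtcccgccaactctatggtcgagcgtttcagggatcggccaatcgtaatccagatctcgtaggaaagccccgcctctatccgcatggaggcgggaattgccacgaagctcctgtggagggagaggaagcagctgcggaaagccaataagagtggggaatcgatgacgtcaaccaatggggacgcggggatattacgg
The shown stretches of SDHA and NDUFB4 each hold 2 NRF1 matches, and over the full 250 bases SDHA holds 4 and NDUFB4 2. COX5B holds 1 GABPA match from 37 to 30 bases before the RefSeq start, and ATP5MC1 holds neither. The part of these matches in the changes was not tested.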

How the data were processed

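RNA-seq of 32 libraries was deposited by the authors as 1 table of TPM values (to 1 decimal) for 19345 symbols. Per the submitters' processing notes, hg38 was used. No aligner, quantifier, annotation or strand setting is named in the labels, and TPM keeps no depth. Libraries were matched to groups by column name. The 6 IL-13 columns matched their group but no single sample, so each carried a batch 2 share of 1 in 6. One part of the culture protocol is not reported here.

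Genes that reached 1 TPM in 6 or more libraries were tested on log2(TPM + 1), with a pseudocount of 1, in limma 3.58.1 (R 4.3.3, trend) over all groups with batch as a term, and were called at a Benjamini-Hochberg adjusted p under 0.05. This log scale understates the change of low genes. The fit was tested on simulated data. Named were the 13 mitochondrial genes, the largest rise and fall past the threshold of each complex and supporting list in each comparison, and a set of core subunits and paralogs. Members and lists were chosen with earlier results of these data known. Alternatives changed the pseudocount, filter, scaling (mitochondrial genes removed, median of ratios, quantile), batch, sample weights, replicate block and single libraries. Promoters and motifs were read with Python 3.11.15 from the RefSeq table, mitochondrial sequences from GENCODE 29 transcripts, and figures drawn with matplotlib 3.10.9. The 18 nuclear genes without a promoter entry were not analysed for motifs. Replicate numbers did not pair the libraries.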

Additional observations from a re-analysis of the deposited data

Results flagged for a closer look

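Of 204 named genes and groups checked, 12 had a highest or lowest library far from the rest by Dixon's criterion, where chance gives about 1 in 20. In D3 spheroids these were ATP5ME in library 6 (64.9 TPM, the next at 47.0), and COX7A1 (2.1 TPM, the next at 1.0) and UQCRC2 (36.6 TPM, the next at 30.0) in library 2. In untreated D11 spheroids they were ATP5MK in library 6 (17.5 TPM, the next at 22.8), MT-CO3 in library 7 (29500 TPM, the next at 45590) and SDHB in library 4 (6.1 TPM, the next at 7.2). With IL-13, library 6 was high in COX7A2 (27.2 TPM, the next at 22.4). IL-13 library 1, which had the lowest mitochondrial share, was low in MT-ND1 (7790 TPM), MT-ND2 (10550 TPM), MT-ND5 (3139 TPM), MT-ND6 (3434 TPM) and NDUFB9 (35.2 TPM).

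The change differed between the batches, by the interaction term in limma, for 60 of 144 named genes and comparisons. Of all genes tested it differed for 45.2% from monolayer to D3, 23.8% from D3 to D11 and 48.3% from monolayer to D11. Values are the log2 change in batch 2 minus that in batch 1. From monolayer to D3 it was more positive in batch 2 for COX6B1 1.11, ATP5MC3 1.08, ATP5MC1 0.95, ATP5ME 0.91, UQCRHL 0.85, COX7A2 0.70, UQCR10 0.63, NDUFA4 0.56, NDUFB4 0.49, UQCRFS1 0.43, ATP5MK 0.42, ATP5F1B 0.41, COX5B 0.41, ATP5F1A 0.37, COX4I1 0.37, COX5A 0.37, NDUFB7 0.36, SDHD 0.36, SDHB 0.34, NDUFS1 0.33 and UQCRC2 0.27. It was more negative in batch 2 for NDUFB9 -1.23, COX6B2 -0.98, MT-ATP8 -0.68, MT-ND5 -0.62, MT-ND6 -0.61, SDHA -0.61 and MT-ND3 -0.28. From D3 to D11 it was more positive in batch 2 for SDHA 0.28. It was more negative in batch 2 for MT-ND2 -0.50, COX7A2L -0.44, NDUFB8 -0.41, NDUFV1 -0.39, NDUFS1 -0.35, MT-ND3 -0.34 and ATP5F1B -0.29. From monolayer to D11 it was more positive in batch 2 for ATP5MC3 1.09, COX6B1 0.99, UQCRHL 0.77, ATP5MC1 0.74, UQCR10 0.70, NDUFA4 0.65, NDUFB4 0.52, COX7A2 0.42, SDHB 0.39, UQCRFS1 0.32, UQCRC2 0.30 and ATP5F1A 0.27. It was more negative in batch 2 for NDUFB9 -1.41, COX6B2 -1.17, MT-ND2 -0.85, MT-ATP8 -0.74, MT-ND1 -0.72, MT-ND6 -0.70, MT-ND5 -0.67, MT-ND3 -0.63, COX7A2L -0.54, MT-CO2 -0.52, NDUFV1 -0.41 and SDHA -0.34. The D3 libraries 4 and 7, which sat with the other batch, enter the first 2 of these comparisons.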

How the results depend on the processing

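Leaving out 1 library moved the counts for D3 against monolayers to 2 to 4 mitochondrial genes lower, 49 to 54 nuclear higher and 4 to 6 lower. For D11 against D3 they were 12 mitochondrial lower, 9 to 10 nuclear higher and 53 to 61 lower, for D11 against monolayers 11 to 12, 25 to 28 and 25 to 28, and with IL-13 0 to 2 mitochondrial higher, 1 to 2 lower and 52 to 62 nuclear higher. Of 3120 such values for named genes 58 lost their call, 20 gained one and 0 reversed. Of 2392 values under other settings 115 lost their call, 91 gained one and 53 reversed. The cause of the changes was not tested. For quantile normalization, single batches, array weights, the replicate block and libraries left out, no share of all genes called was taken. The counts higher or lower under those settings are therefore not set against a background.

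D3 against monolayers: with mitochondrial genes removed 3 nuclear genes were lower. Under median of ratios 10 mitochondrial genes were higher and 0 lower, 79 nuclear higher and 1 lower, and the changes were 0.51 for MT-ATP6, 0.34 for MT-ATP8, 0.54 for MT-CO1, 0.15 for MT-CYB, 0.10 for MT-ND1, 0.41 for MT-ND2, 0.39 for MT-ND4, 0.37 for MT-ND4L, 0.28 for MT-ND5, 0.24 for MT-ND6 and 0.42 for COX7A2L. Quantile normalization gave 0 mitochondrial higher, 79 nuclear higher and 1 lower, MT-ND3 -0.030 and COX7A2L 0.44. Batch 1 alone gave 1 mitochondrial lower, 31 nuclear higher and 10 lower, MT-ND5 0.055, MT-ND6 0.012 and NDUFB9 0.019. Batch 2 alone gave 1 mitochondrial higher and 8 lower. Array weights gave 9 mitochondrial lower, and leaving out D3 libraries 4 and 7 gave 2.

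D11 against D3: with mitochondrial genes removed 2 nuclear were higher, with ATP5MC2 at -0.37, NDUFB9 at -0.44 and NDUFB4 at -0.24. Array weights gave 1 mitochondrial gene higher, MT-ND2 (0.27). D11 against monolayers: with mitochondrial genes removed 5 nuclear were higher and 64 lower, with UQCRFS1 -0.54, COX4I1 -0.56, COX7A2 -0.31, NDUFA1 -0.044, UQCRHL -0.20, ATP5ME -0.13, COX5B -0.29, UQCR10 -0.13 and UQCR11 -0.52. Median of ratios gave 2 mitochondrial higher, 65 nuclear higher and 6 lower, with MT-CO3 0.20, MT-ND2 0.35, MT-ND3 0.47, NDUFS1 0.020, SDHB 0.44, UQCRC1 0.29, UQCRC2 0.48, COX5A 0.48, ATP5F1A 0.14, ATP5F1B 0.20, COX6A1 0.58, NDUFA4 0.40, NDUFB9 0.11, SDHD 0.38 and NDUFB7 0.26. Quantile gave 50 nuclear higher and 12 lower, with MT-CO3 0.21, SDHB 0.42, UQCRC2 0.30, COX5A 0.41 and SDHD 0.34. Batch 1 alone gave 14 nuclear higher and NDUFB9 0.19, and batch 2 alone ATP5MC3 0.30. IL-13: median of ratios gave 6 mitochondrial lower, 22 nuclear higher and UQCRC2 -0.046. Quantile gave 1 mitochondrial and 24 nuclear higher and UQCRC2 -0.052, and array weights 1 mitochondrial higher.

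The replicate numbers did not pair the libraries, with correlations of deviations over same-numbered libraries from -0.44 to 0.36. With a replicate block 6 nuclear genes were higher from D3 to D11 and 14 from monolayer to D11. No paired analysis was run for IL-13, because the numbers of its columns are not those of its sample titles and no column is tied to a single sample. Of genes whose change differed between batches, 11 mitochondrial were called for D3 against monolayers without D3 libraries 4 and 7 (48.4% of all genes), and 0 mitochondrial and 4 nuclear for D11 against D3 with all 4 groups fitted (6.19% of all genes). Both of these fits were chosen after seeing the data. As shares of TPM outside mitochondrial genes the nuclear sums were 0.738%, 1.04%, 0.538% and 0.718% in monolayers, D3, D11 and IL-13.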
